A study of Mus musculus with 4 samples.

Results

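The genes described here are 10 enzymes and regulators of polyamine metabolism and S-adenosylmethionine supply: Sat1, Odc1, Amd1, Amd2, Srm, Sms, Oaz1, Oaz2, Azin1 and Mat2a. They were selected by gene symbol, and all 10 were found among the 23284 symbols of the deposited expression table. The list was chosen with results of the galectin-1 comparison known, so their differences between groups are given as a description. The cells were macrophages grown from the bone marrow of wild-type mice. All 4 cultures first received lipopolysaccharide (LPS), a bacterial outer membrane component, for 1 h at a concentration of 1 µg/ml. For the next 24 h the medium held either recombinant galectin-1 of the mouse, a secreted lectin that binds β-galactosides, or phosphate-buffered saline as the vehicle. There were 2 libraries of each treatment. The labels give no galectin-1 dose and no culture without LPS, and do not say whether the 2 libraries of a group came from separate mice or cultures. The p-values therefore measure the spread between these libraries, which may be technical.

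Polyamines are small, positively charged molecules that bind RNA and support translation and growth. Ornithine decarboxylase (Odc1) makes putrescine from ornithine. Spermidine synthase (Srm) and then spermine synthase (Sms) add aminopropyl groups taken from decarboxylated S-adenosylmethionine. That donor is made by S-adenosylmethionine decarboxylase (Amd1, Amd2), whose substrate comes from methionine adenosyltransferase (Mat2a). Antizymes (Oaz1, Oaz2) bind ornithine decarboxylase and lead it to the proteasome, and antizyme inhibitor (Azin1) takes antizyme away from it. Spermidine/spermine acetyltransferase (Sat1) acetylates the longer polyamines for export or oxidation. In macrophages, polyamines are known for their link to alternative activation and, through hypusine on Eif5a, to translation of mitochondrial enzymes.

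Levels are in FPKM, fragment numbers scaled to transcript length and library size, so levels of different genes can be compared within a library. Total FPKM ranged from 541138 to 557661 per library, and 13636 to 13785 symbols were above 0. Absolute depth is unknown. Steps between low values put the depth of the other 3 libraries at 0.874 to 1.02 of that of vehicle replicate 1. All 9 macrophage markers were detected, with summed levels of 9347 and 9352 FPKM in vehicle and 10126 and 10143 FPKM in galectin-1. None of these 9 passed the test on its own. Of 6 neutrophil markers found, none reached 1 FPKM, and Elane, Ltf and Ngp were listed at 0. Cd3e and Cd3g were listed at 0, Cd4 was the only T and NK cell marker of 6 found to reach 1 FPKM, and Cd79b the only one of 5 for B cells. Summed dendritic cell markers, of which 3 of 8 reached 1 FPKM, were 22.7 and 22.8 FPKM in vehicle and 17.3 and 17.9 FPKM in galectin-1. Fscn1 of that list fell, from 11.3 and 11.7 FPKM to 7.84 and 8.18 FPKM (limma adjusted p = 0.0425). Fscn1 and Ccl22 made up most of these sums. Ccl22 was at 8.97 and 9.12 FPKM in vehicle and 7.23 and 7.46 FPKM in galectin-1 and did not pass (limma adjusted p = 0.0911). The other markers did not share 1 direction. Group means of Flt3, Zbtb46, Dpp4 and Xcr1, all below 1 FPKM, were higher with galectin-1, and those of Ccr7 and Cd209a were lower. Summed fibroblast markers, 5 of 8 at 1 FPKM or more, were 16.4 and 16.6 FPKM in vehicle and 20.4 and 20.6 FPKM in galectin-1. Lyz2, at 5642 to 6269 FPKM, made up most of the macrophage sum, and Mertk of that list had a negative log2 fold change (-0.17). The macrophage, dendritic and fibroblast sums thus did not overlap between the treatments, but neither did 55.4% of all tested genes. The part of these sums in the differences of the members was not tested. In bulk RNA, fewer cells of a type and less RNA per cell cannot be told apart.

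Near-identical copies of some members limit what their values mean, so the sequences that separate them are shown first. Amd1 lies at chr10:40287458-40302186 on the minus strand and has 8 exons in the GENCODE M21 annotation of GRCm38. Amd2 lies at chr10:35708675-35711892, also on the minus strand, and has a single exon. Their coding sequences are both 1005 bases long and differ by 1 substitution, G796C, counted from the first coding base with Amd1 as the reference. The stretches below run 5′ to 3′ over coding bases 756 to 836, chr10:40290146-40290226 for Amd1 and chr10:35710724-35710804 for Amd2, and the capital marks the differing base.
Amd1: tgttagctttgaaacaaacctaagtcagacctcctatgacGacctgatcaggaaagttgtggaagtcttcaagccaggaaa
Amd2: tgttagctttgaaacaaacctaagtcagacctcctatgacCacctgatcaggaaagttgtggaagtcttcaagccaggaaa
A read inside the coding sequence that does not cover this base matches both copies equally well.

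Antizyme has a similar partner. Oaz1 lies at chr10:80826656-80829290 on the plus strand. The processed pseudogene Oaz1-ps, an intronless copy of its mRNA, lies at chr17:17345456-17346140 on the minus strand. Over the 685 bases from the start to the stop codon they differ by 1 substitution, G125C, again counted from the first coding base with Oaz1 as the reference. Antizyme is known for a programmed shift of the reading frame, at which the ribosome moves by 1 base near an in-frame stop codon. The stretches below cover bases 115 to 234, joined across exon borders in Oaz1 (spanning chr10:80826874-80828324) and continuous in Oaz1-ps (chr17:17345907-17346026). Capitals mark the differing base and the shift site TCCTGAT, which both copies have.
Oaz1: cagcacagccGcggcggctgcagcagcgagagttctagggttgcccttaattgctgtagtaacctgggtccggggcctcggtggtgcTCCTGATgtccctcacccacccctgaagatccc
Oaz1-ps: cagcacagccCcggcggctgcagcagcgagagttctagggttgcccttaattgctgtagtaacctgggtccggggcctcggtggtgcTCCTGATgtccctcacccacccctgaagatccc

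The share of each transcript that also occurs in a transcript of another gene shows how far this reaches. Of all stretches of 50 bases, 87.6% of Amd1 and 85.7% of Amd2 were shared, nearly all of them between the pair. For Oaz1 the shared part was 58.8%, all with Oaz1-ps, and 92.1% of Oaz1-ps was shared with Oaz1. The GENCODE model of Oaz1-ps holds only the 685 bases from start to stop codon. RefSeq gives it a longer span, chr17:17345242-17346204, which was not searched, so the share of Oaz1 may be understated. Odc1 had 42.2% in common with pseudogenes such as Gm7993 and Gm17709, and Sms had 28.7% in common with Sms-ps. Unlike Amd2 and Oaz1-ps, none of Gm7993, Gm17709 and Sms-ps was found among the deposited symbols. The other 5 members were mostly unique: 12.0% was shared in Oaz2, 11.4% in Mat2a, 7.28% in Sat1, 6.43% in Azin1 and 2.41% in Srm. With stretches of 100 bases the shares fell to 0.376% in Sat1, 3.53% in Mat2a and 19.6% in Odc1, while Amd1 was at 76.4%.

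**Figure D1:**
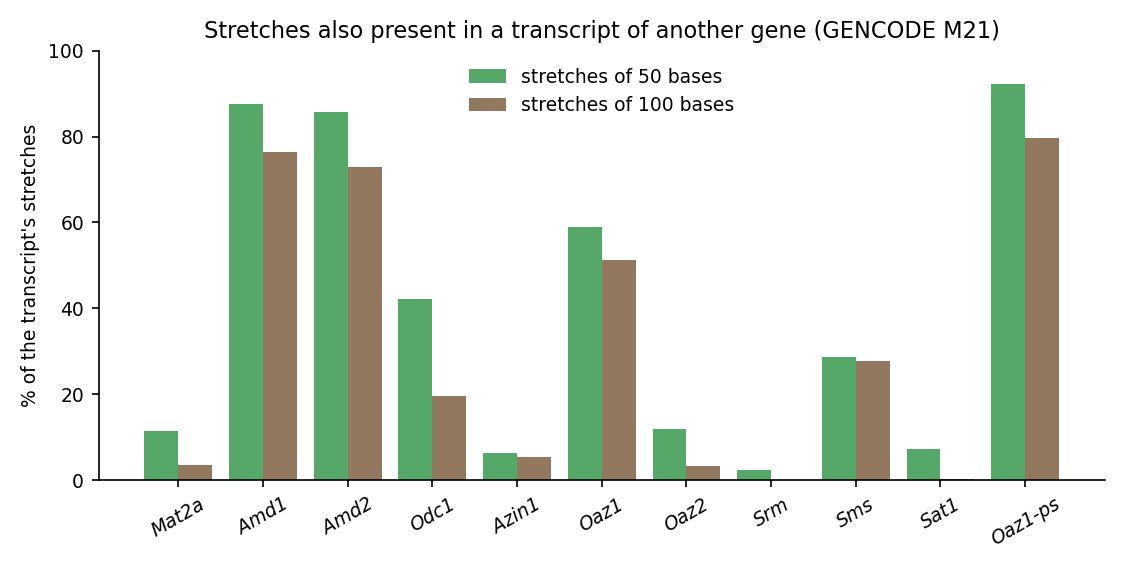
Share (%) of all stretches of 50 bases (green) and 100 bases (brown) of each transcript that also occurs in a transcript of another gene, on a linear axis from 0. Amd1, Amd2, Oaz1 and Oaz1-ps have the tallest bars, and at 100 bases Srm has none and Sat1 0.376%.

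Galectin-1 cultures held more mRNA of Sat1, which turns polyamines over, and of Mat2a, which supplies S-adenosylmethionine. Both were higher by a similar amount, 0.41 ± 0.036 for Sat1 and 0.39 ± 0.037 for Mat2a (log2 fold change of FPKM + 1 ± SE). Levels of Odc1 and Azin1 were lower in both galectin-1 libraries but did not pass the test. No member was called lower, and the 2 synthases and the 2 antizymes did not pass in either direction. Among the 9380 genes whose mean level reached 1 FPKM, limma called 112 at a Benjamini-Hochberg adjusted p under 0.05, or 1.19%. Of these, 57 were higher (0.608%) and 55 lower (0.586%). With quantile normalization, 24 were higher and 47 lower, so 33.8% of calls were higher rather than 50.9%. All 10 members passed the filter and 2 of 10 were called, both higher, which the choice of the list with this comparison in view makes uninformative. Each of these 2 calls was lost in 6 of 13 alternative fits, described with the genes below. The groups did not overlap for 5 of 10 members, Sat1, Mat2a, Amd2, Odc1 and Azin1, against 55.4% of all genes tested, a share near the background. The median log2 fold change was 0.04 over the members and 0.0024 over all tested genes, with 6 members positive and 4 negative.

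**Figure D2:**
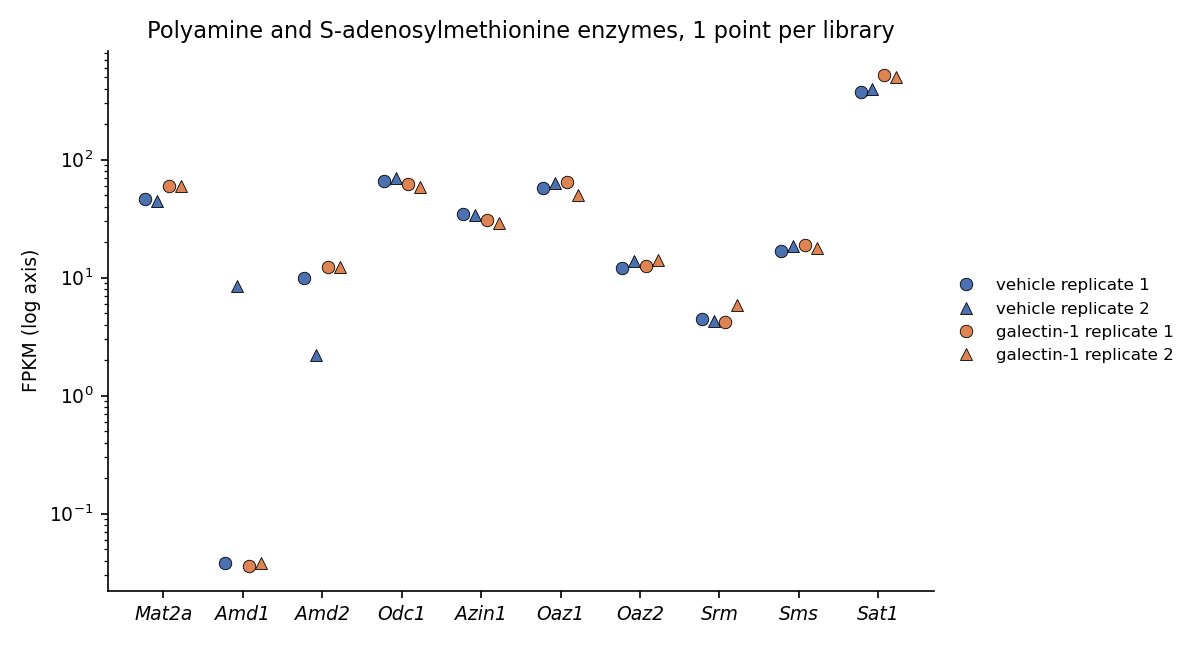
FPKM of the 10 members on a log axis, with 1 point per library (blue, vehicle; orange, galectin-1; circles, replicate 1; triangles, replicate 2). Sat1 is highest at 376 to 519 FPKM, and Amd1 is at 8.47 FPKM in vehicle replicate 2 but near 0.04 FPKM in the other 3 libraries.

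By level, Sat1 led with a mean of 449.5 FPKM over the 4 libraries, rank 227 of 23284 symbols. Odc1 (64.4 FPKM), Oaz1 (58.9 FPKM) and Mat2a (52.7 FPKM) followed, and the ranges of neighbours in this order overlapped. Oaz1 is placed by its own entry alone, while its copy Oaz1-ps had a mean of 279.9 FPKM. The level of Odc1 is limited too, since 42.2% of its 50-base stretches also occur in other genes. For Gm7993 and Gm17709 among these, no entry with a level was found. Azin1 at 32.2 FPKM and Sms at 18.0 FPKM each stood apart from their neighbours in all 4 libraries. Oaz2 (13.1 FPKM), Amd2 (9.14 FPKM), Srm (4.71 FPKM) and Amd1 (2.14 FPKM) closed the order, with overlapping ranges between neighbours. The listed mRNA level of the rate-limiting enzyme of synthesis was thus far below that of the acetyltransferase, and protein was not measured here. The ratio of Sat1 to Odc1 was 5.66 in each vehicle library, and 8.32 and 8.64 in the galectin-1 libraries.

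Mat2a, at chr6:72432799-72439558 on the minus strand, encodes the catalytic subunit that makes S-adenosylmethionine from methionine and ATP outside the liver. Its levels were 46.2 and 44.8 FPKM in vehicle replicates 1 and 2, and 59.8 and 60.1 FPKM in galectin-1 replicates 1 and 2. Both galectin-1 libraries were above both vehicle libraries, and each pair lay close together. The group means were 45.5 ± 0.935 and 59.9 ± 0.263 FPKM (SD, n = 2), a difference of 31.7%. The log2 fold change was 0.39 (SE 0.037, limma adjusted p = 0.0276). That call was lost when any 1 of the 4 libraries was left out (limma adjusted p from 0.101 to 0.208), without the filter on low values (0.123) and without limma's mean-variance trend (0.138). Mat2b, the regulatory subunit of the same enzyme, was at 14.0 and 12.8 FPKM in vehicle and 12.4 and 12.1 FPKM in galectin-1, which did not pass the test (limma adjusted p = 0.325). The ratio of Mat2a to Mat2b was 3.29 and 3.50 in vehicle and 4.81 and 4.97 in galectin-1, without overlap. Mat1a, the liver form, was listed at 0 in all 4 libraries.

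Mat2a has an antisense neighbour, Particl, listed under the older symbol 4930414L22Rik. It lies at chr6:72439051-72440610 on the plus strand and overlaps the first part of Mat2a and its promoter. 4930414L22Rik was at 3.21 and 3.66 FPKM in vehicle and 4.21 and 4.59 FPKM in galectin-1, with a log2 fold change of 0.29 (SE 0.091, limma adjusted p = 0.146). The libraries were made with a stranded kit, per the labels, but the labels do not say whether strand was used in counting. Reads of the overlapping part may therefore stand in either entry.

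S-adenosylmethionine decarboxylase makes the aminopropyl donor and was listed under 2 entries whose values traded places in 1 library. Amd1 was at 0.0380 and 8.47 FPKM in vehicle replicates 1 and 2, and at 0.0359 and 0.0382 FPKM in galectin-1 replicates 1 and 2. Amd2 was at 9.89 and 2.23 FPKM in vehicle and 12.2 FPKM in both galectin-1 libraries. In vehicle replicate 2, Amd1 thus made up 79.2% of the summed level, and in the other 3 libraries 0.293 to 0.382%. The log2 fold changes of -1.60 (SE 0.94) for Amd1 and 1.16 (SE 0.51) for Amd2 rested on that library and did not pass the test (limma adjusted p = 0.361 and 0.249). Without vehicle replicate 2 they were -0.0013 and 0.28. Without vehicle replicate 1, so that vehicle replicate 2 alone stood for the vehicle group, they were -3.19 and 2.03 and both passed.

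The sum of both entries was steadier. It was 9.93 and 10.7 FPKM in vehicle and 12.24 and 12.28 FPKM in galectin-1, so both galectin-1 libraries were above both vehicle libraries. Entered into the fit as 1 gene, an alternative added after the values were seen, the sum had a log2 fold change of 0.23 (SE 0.061, 95% interval 0.080 to 0.38). It did not pass the test (limma adjusted p = 0.111). These files do not tell which copy was transcribed.

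**Figure D3:**
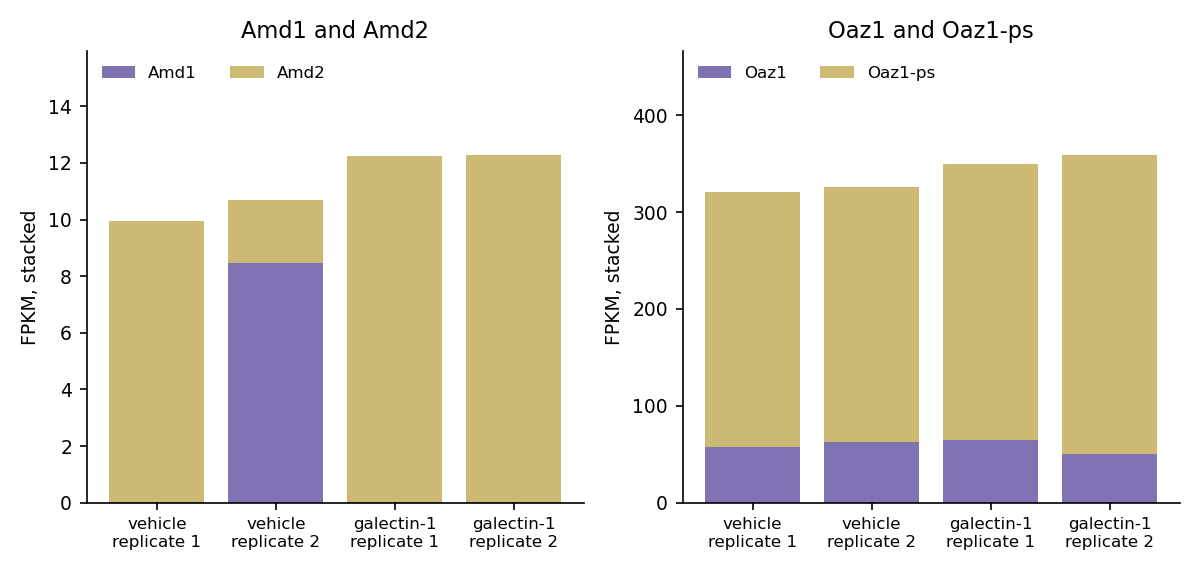
Stacked FPKM of Amd1 with Amd2 (left) and of Oaz1 with Oaz1-ps (right) in each library, on linear axes from 0. The division between Amd1 and Amd2 turns over in vehicle replicate 2 while the bar heights stay between 9.93 and 12.28 FPKM, and Oaz1-ps takes 80.6 to 86.1% of every bar on the right.

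Ornithine decarboxylase and its partner Azin1 both had lower values with galectin-1. Odc1, at chr12:17544794-17551505 on the plus strand, was at 66.5 and 70.1 FPKM in vehicle and 62.3 and 58.6 FPKM in galectin-1. The groups did not overlap, but the log2 fold change of -0.17 (SE 0.048) did not pass the test (limma adjusted p = 0.119). Azin1, at chr15:38487427-38519266 on the minus strand, is related to Odc1 in sequence but has no enzyme activity. It was at 34.6 and 34.0 FPKM in vehicle and 31.0 and 29.1 FPKM in galectin-1. Its log2 fold change was -0.18 (SE 0.048) and again did not pass (limma adjusted p = 0.108). The difference was close to that of Odc1, and the ratio of Odc1 to Azin1 was 1.92 and 2.06 in vehicle and 2.01 in both galectin-1 libraries.

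Neither antizyme passed the test. Oaz1 was at 57.6 and 63.0 FPKM in vehicle and 64.93 and 50.03 FPKM in galectin-1, where the 2 replicates were the highest and the lowest of all 4 libraries. Its log2 fold change was -0.08 (95% interval -0.37 to 0.21), and 0.11 without galectin-1 replicate 2. Most of the antizyme signal was listed under the pseudogene: Oaz1-ps was at 263.6 and 262.6 FPKM in vehicle and 284.7 and 308.8 FPKM in galectin-1, 4.17 to 6.17 times the level of Oaz1. Its log2 fold change was 0.17 (SE 0.044, limma adjusted p = 0.106). Summed, the copies were at 321.3 and 325.6 FPKM in vehicle and 349.6 and 358.9 FPKM in galectin-1. The GENCODE M21 transcripts used here are 1045 bases long for Oaz1 and 685 for Oaz1-ps. RefSeq gives Oaz1-ps a longer span, and the length used for the deposited FPKM is not known. FPKM are per length, so this sum may itself depend on how reads were divided between the copies. The groups of sums did not overlap, and the log2 fold change of 0.13 (95% interval 0.059 to 0.20) did not pass the test (limma adjusted p = 0.0878). Oaz2, at chr9:65668001-65690300 on the plus strand, was at 12.0 and 13.9 FPKM in vehicle and 12.5 and 14.1 FPKM in galectin-1. Its groups overlapped, with a log2 fold change of 0.04 (95% interval -0.18 to 0.26).

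The aminopropyl synthases also overlapped between treatments. Srm, at chr4:148591503-148594993 on the plus strand, was at 4.49 and 4.31 FPKM in vehicle and 4.24 and 5.82 FPKM in galectin-1. Only galectin-1 replicate 2 stood above the others, and without it the log2 fold change went from 0.15 (95% interval -0.18 to 0.47) to -0.043. Sms, at chrX:157443855-157492287 on the minus strand, was at 17.0 and 18.6 FPKM in vehicle and 18.9 and 17.7 FPKM in galectin-1. Its log2 fold change was 0.04 (95% interval -0.11 to 0.20), an interval that leaves room for a small difference in either direction. Sms mRNA was 3.05 to 4.45 times as abundant per length as Srm mRNA in the 4 libraries.

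Sat1, at chrX:155213132-155216449 on the minus strand, is the rate-limiting enzyme of polyamine breakdown and is known to be induced by polyamines and by inflammatory stimuli. Its levels were 376.5 and 397.0 FPKM in vehicle replicates 1 and 2, and 518.7 and 505.9 FPKM in galectin-1 replicates 1 and 2. The gap between the groups was wider than the spread within either. The group means were 386.8 ± 14.5 and 512.3 ± 8.99 FPKM (SD, n = 2), a difference of 32.5%. The log2 fold change was 0.41 (SE 0.036, limma adjusted p = 0.0250), rank 238 of 9380 by size. Spermine oxidase (Smox), which returns spermine to spermidine without acetylation, was at 23.7 and 24.6 FPKM in vehicle and 24.8 and 26.3 FPKM in galectin-1, and did not pass (limma adjusted p = 0.421). Sat1 was 15.9 and 16.1 times as abundant as Smox in vehicle, and 20.9 and 19.2 times in galectin-1. As for Mat2a, the call was lost when any 1 library was left out (limma adjusted p from 0.0695 to 0.132), without the filter (0.130) and without the trend (0.138). The log2 fold changes of both genes stayed between 0.35 and 0.44 under all alternatives run.

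**Figure D4:**
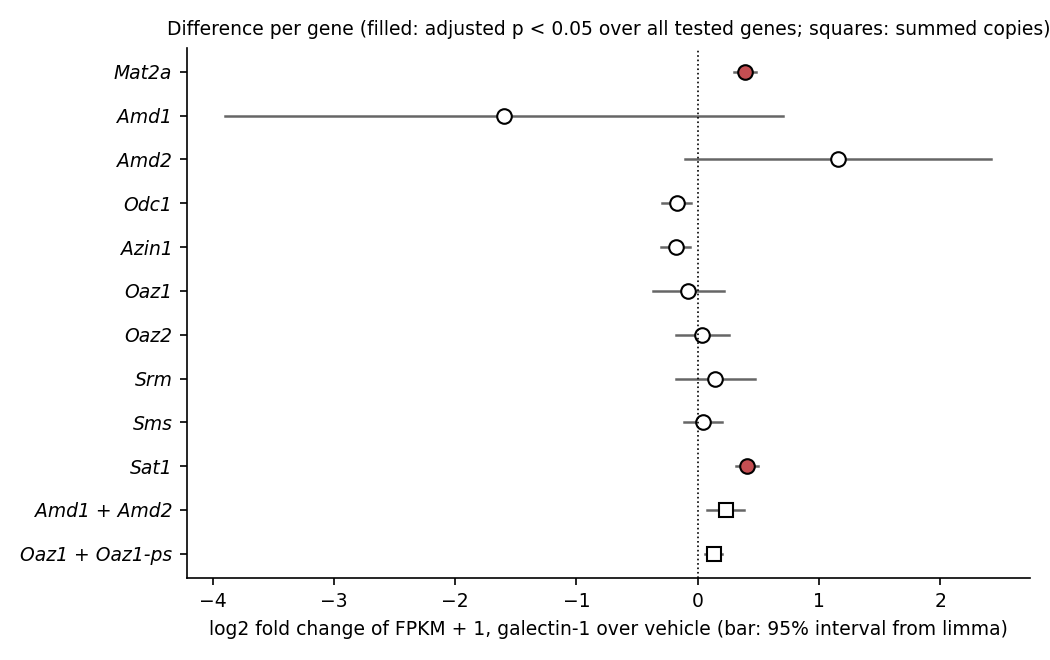
Log2 fold change of FPKM + 1, galectin-1 over vehicle, for the 10 members (circles) and the 2 summed pairs of copies (squares), with 95% intervals from limma; filled circles passed an adjusted p under 0.05. Sat1 at 0.41 and Mat2a at 0.39 are filled, and Amd1 and Amd2 have the widest intervals.

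Since Sat1 and Mat2a were the members called, the 120 bases before their start sites are shown, 5′ to 3′ on the strand of the gene (RefSeq, GRCm38.p6). The windows are chrX:155216450-155216569 for Sat1 and chr6:72439557-72439676 for Mat2a. Capitals mark GGGCGG (the core of the GC box), CCAAT (the CCAAT box) and TATAAA (the TATA box) on either strand.
Sat1: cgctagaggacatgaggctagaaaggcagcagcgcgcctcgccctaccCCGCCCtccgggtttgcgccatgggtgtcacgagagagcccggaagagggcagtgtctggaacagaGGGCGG
Mat2a: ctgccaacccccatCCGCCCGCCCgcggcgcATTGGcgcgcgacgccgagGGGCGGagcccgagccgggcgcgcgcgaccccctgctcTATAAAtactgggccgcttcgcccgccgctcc
Both windows hold GGGCGG, and in Mat2a 2 of its copies overlap. Only that of Mat2a holds TATAAA, 32 bases before the start. Of the members, 8 matched an entry of the promoter table, which covers 250 bases before and 50 after the start, with 9 entries in all. GGGCGG occurred in entries of 6 members (Amd1, Mat2a, Oaz2, Odc1, Sat1 and Sms) and in 35.7% of all 32851 entries. CCAAT occurred in Amd2, Mat2a, Oaz1 and Sms and in 37.4% of all entries. TATAAA occurred in Mat2a and Oaz1 and in 13.6%. CACGTG, the E-box read by Myc and Max, occurred in Sms and in 7.15%, and was not among the letters of the Odc1 entry. TATGACTAA, a polyamine-responsive element described for Sat1, occurred in no member entry and in 0.0974% of all entries. TTCNNNGAA, the pattern read by STAT factors, also occurred in no member entry, and in 8.30% of all entries. Sequence beyond these 250 and 50 bases was not searched, so a site of any of these patterns there would not have been seen.

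Over all tested genes 1.19% were called, so a short related list without a call, as in most of those below, says little about its pathway. Of 7 further genes of polyamine synthesis, oxidation and control, 2 reached the minimum of 1 FPKM, Smox and the acetylpolyamine oxidase Paox, and neither passed (median log2 fold change 0.05). Agmat and Satl1 were listed at 0 in all libraries, and Sat2 was at 0.213 to 0.660 FPKM. Azin2, a second antizyme inhibitor listed under the older symbol Adc, was also below the minimum, at 0.967 and 0.912 FPKM in vehicle and 0.613 and 0.338 FPKM in galectin-1, and was not tested. All 4 genes of the hypusine pathway were tested and none passed (median 0.0077). Eif5a, the protein that carries hypusine, was at 253.4 and 260.9 FPKM in vehicle and 272.0 and 266.3 FPKM in galectin-1. Its log2 fold change was 0.07 (limma adjusted p = 0.276).

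Of 9 genes of polyamine transport, 4 were tested and none passed (median 0.09). Slc3a2, the heavy chain of several amino acid exchangers that has also been tied to polyamine export, was at 145.9 and 143.2 FPKM in vehicle and 163.6 and 166.1 FPKM in galectin-1. The groups did not overlap, and the log2 fold change was 0.19 (SE 0.031, limma adjusted p = 0.0562). It passed in 3 of 13 alternatives, among them a minimum of 5 FPKM (0.0440) and the fit without small RNA entries (0.0295). Atp13a2, the lysosomal polyamine exporter, had a log2 fold change of 0.15 (limma adjusted p = 0.199).

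Of 18 genes of the methionine cycle and of S-adenosylmethionine use, 11 were tested and none passed (median 0.06). Ahcy, which removes S-adenosylhomocysteine, had a log2 fold change of 0.13 (limma adjusted p = 0.315), and its relatives Ahcyl1 and Ahcyl2 had 0.09 and 0.13. Mettl16, which methylates Mat2a mRNA and controls its splicing, was at 4.50 and 4.43 FPKM in vehicle and 4.98 and 4.205 FPKM in galectin-1, with overlapping groups. Bhmt and Cbs were listed at 0. Of 5 genes of methionine salvage, which recycles the by-product of the aminopropyl synthases, 4 were tested and none passed (median -0.04). Mtap, its first enzyme, was at 7.77 and 6.88 FPKM in vehicle and 6.24 and 5.51 FPKM in galectin-1, a log2 fold change of -0.28 (SE 0.090, limma adjusted p = 0.151).

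Of 9 genes of arginine and ornithine supply, 8 were tested and none passed (median -0.03). The lowest p-values belonged to transporters with lower values in galectin-1. Slc7a7, which forms a cationic amino acid exchanger with Slc3a2, was at 13.5 and 13.7 FPKM in vehicle and 9.35 and 10.4 FPKM in galectin-1 (log2 fold change -0.43, SE 0.066, limma adjusted p = 0.0552). Slc7a2, an arginine importer of activated macrophages, was at 15.6 and 16.1 FPKM in vehicle and 12.64 and 13.004 FPKM in galectin-1 (-0.28, SE 0.053, limma adjusted p = 0.0656). With a minimum of 5 FPKM or without small RNA entries, 2 genes of this list were called, and 1 was with a pseudocount of 0.1 FPKM. Arg1, the arginase that makes ornithine in alternatively activated macrophages, was at 0.0550 to 0.227 FPKM and was not tested, while Nos2, which uses the same arginine, was at 154.4 to 169.9 FPKM.

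Of 12 genes of the Myc network, 11 were tested, 1 was called higher and none lower (median 0.06). The 1 called was Mxd1, which pairs with Max and opposes Myc. Mxd1 was at 66.97 and 72.00 FPKM in vehicle and 88.7 and 89.5 FPKM in galectin-1, with a log2 fold change of 0.36 (SE 0.044, limma adjusted p = 0.0411). That call was lost when any 1 library was left out, without the filter and without the trend. Myc, a known activator of Odc1, was at 5.48 and 5.32 FPKM in vehicle and 5.07 and 4.93 FPKM in galectin-1 and did not pass (limma adjusted p = 0.467).

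**Figure D5:**
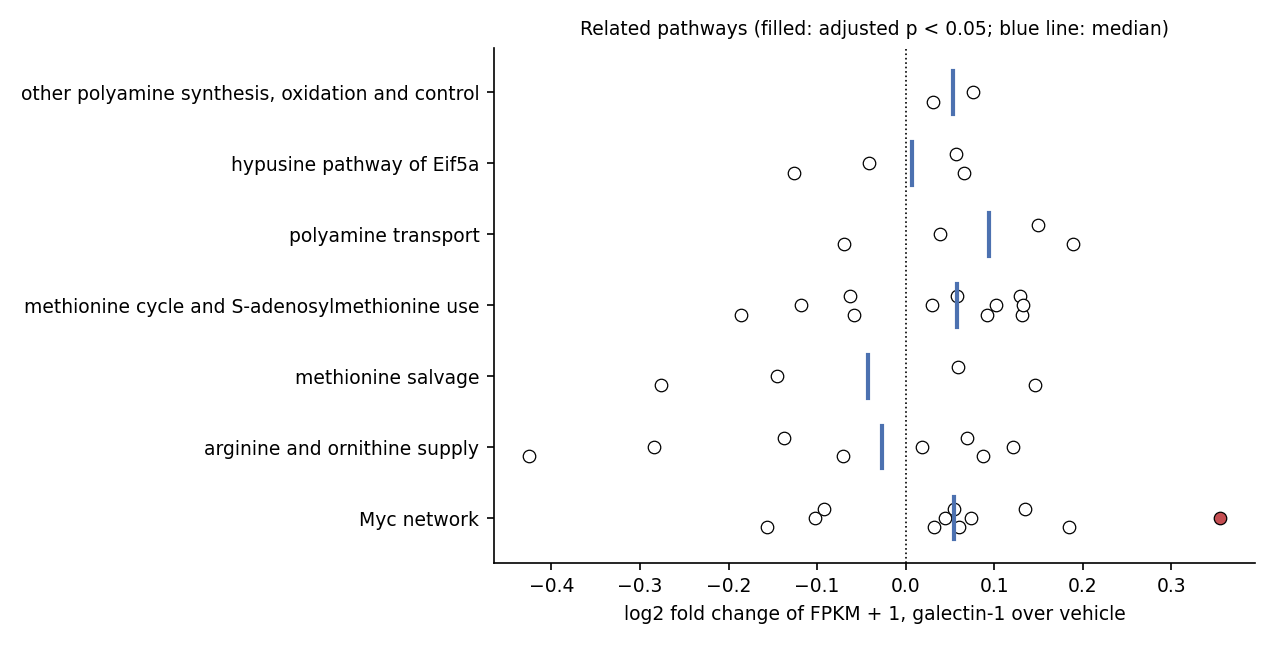
Log2 fold change of FPKM + 1, galectin-1 over vehicle, for each tested gene of the 7 related lists (1 point per gene, spread vertically for legibility; blue line, median of the list; filled, adjusted p under 0.05). The medians lie between -0.04 and 0.09, and Mxd1 at 0.36 in the Myc network is the single filled point.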

How the data were processed

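RNA was sequenced from 4 libraries, grouped by sample title. The authors deposited FPKM values, 1 per gene symbol and library; TopHat2 2.0.13, Bowtie2 2.2.3, SAMtools 0.1.19, Cufflinks 2.2.1 and the build mm10 are named, without roles, per the submitters' processing notes. The sources used here do not name the annotation, the use of strand, the handling of reads with several matches or any scaling between libraries, and the first 3 could divide reads of copies or overlapping genes differently. FPKM are not counts, so log2(FPKM + 1) was fitted with limma 3.58.1 (R 4.3.3) with a mean-variance trend over the 9380 symbols with a mean of at least 1 FPKM, and p-values were adjusted by Benjamini-Hochberg over all of them (called under 0.05). The code was tested on simulated data. With 2 libraries a group, the fit had 2 residual and 3.89 prior degrees of freedom.

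The members and lists were chosen with earlier results of these data known. All members are named, and of each list every gene called, otherwise up to 4 genes with the smallest p, besides a few others of known role, named after their values were seen (Mat1a, Mettl16, Bhmt, Cbs, Arg1, Myc and genes listed at low values). Shared stretches were counted on GENCODE M21 transcripts (GRCm38, the assembly of mm10), either strand. The Oaz1 model leaves out 1 base at the frameshift site, which was put back from another Oaz1 transcript. Alternatives were another pseudocount, filters, scalings, no trend, a replicate block, no small RNA entries, leaving out each library, and summed copies, the last chosen after seeing the data.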

Additional observations from a re-analysis of the deposited data

How the results depend on the processing

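With 57 genes called higher and 55 lower as reported, the counts were 1 and 2 without the filter, 127 and 99 with a minimum of 5 FPKM, 24 and 47 with quantile normalization, 1 and 1 without the trend and 189 and 176 without small RNA entries. With the replicate block they were 123 and 117, and Slc3a2 (limma adjusted p = 0.0489) and 1 gene of arginine and ornithine supply were called. No label says that a replicate number is shared between the groups, so the numbers were not taken as pairs. Deviations from the group means of same-numbered libraries had a correlation of 0.0114 over all tested entries, small RNA entries included. That value cannot decide whether the libraries were paired, since noise of such entries may hide a shared part. The vehicle replicates correlated at 0.983 with these entries and at 0.997 without them. Leaving out each library gave 4 to 9 higher and 3 to 12 lower, the lone library of a group being assumed to vary like the others. The number of members called, 2 as reported, was 0 without the filter and without the trend, and 0 to 2 with a library left out, the 2 being Amd1 and Amd2 without vehicle replicate 1, not Sat1 and Mat2a. With copies summed, Amd1 with Amd2 had 0.23 and Oaz1 with Oaz1-ps 0.13, against negative values of Amd1 and Oaz1 alone. Otherwise signs of members turned only where a library was left out: Srm ranged from -0.043 (without galectin-1 replicate 2) to 0.34, Sms from -0.019 (without vehicle replicate 1; -0.00027 without galectin-1 replicate 1) to 0.10, Oaz1 from -0.26 to 0.11 (without galectin-1 replicate 2), and Oaz2 from -0.056 (without vehicle replicate 1; -0.040 without galectin-1 replicate 2) to 0.13. The cause was not tested. Odc1 and Azin1 kept their sign and did not pass under any of the 13 alternatives run for each. Amd1 and Srm had no value with a minimum of 5 FPKM. Depth limits the entries under 1 FPKM, whose error is not known here.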

Other observations

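The pattern seen for Amd1, 1 library at least 10-fold above or below the other 3, was found in 35 of 9380 tested entries. Small RNA entries made up 29 of these, and the other 6 were Amd1, Apoo-ps, Gm5643, Pira7, Rmrp and Rnaset2a, named after their values were seen. Rnaset2a, a ribonuclease gene with a second copy listed as Rnaset2b, was at 4.20 FPKM in vehicle replicate 2 and at 0.0013 to 0.0034 FPKM in the other 3 libraries. Unlike Amd2, Rnaset2b was not low in that library: it was at 3.66 and 3.78 FPKM in vehicle and 2.69 and 2.36 FPKM in galectin-1. The sum of both Rnaset2 entries was therefore 7.98 FPKM in vehicle replicate 2 against 2.36 to 3.66 FPKM elsewhere. Ass1, which makes argininosuccinate from citrulline, instead split by replicate number: it was at 2.30 FPKM in vehicle replicate 1 and 1.99 FPKM in galectin-1 replicate 1, and listed at 0 in both replicates 2. The processed pseudogene Gm5424, taken as a near-identical copy of Ass1 without a comparison of their sequences here, was at 39.8 to 49.0 FPKM in all 4 libraries. How reads were divided between these entries was not tested.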
